A study of Mus musculus with 2 samples.

Results

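The cells described here were insulin-leading cells of the WT islet library with a high level of *Fos* and *Hspa1a*. They were selected on measured values: insulin transcripts (*Ins1* and *Ins2*) were the largest of the 4 hormone groups of the islet and at least 20% of the cell's UMIs, and *Fos* and *Hspa1a* together reached at least 1000 CPM. A UMI (unique molecular identifier) marks 1 captured RNA molecule, and CPM are the UMIs of a gene per 1000000 UMIs of a cell or of a sum over cells. Among 4628 WT cells that passed the filter on cell quality, 1805 were insulin-leading and 150 of these were members, which is 8.31% (95% Clopper-Pearson interval, 7.08 to 9.68, counting error only). The remaining 1655 WT insulin-leading cells are called the other cells below and served as the comparison. Both libraries together held 16215 barcodes, of which 8897 passed the filter.

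Islets came from mice aged 2 weeks with a C57BL/6J background, either WT or Npc1KO, which lack the lysosomal cholesterol transporter NPC1. Each genotype had 1 library, made from the pooled islets of 3 female mice, after collagenase digestion of the pancreas and trypsin dissociation of the islets. The WT library had 8569 barcodes and 114324626 UMIs, and the Npc1KO library had 7646 barcodes and 127122035 UMIs. Since there was 1 library per genotype and cells are not replicates, no p-value is given, and every interval is a 95% interval that covers counting error only. The libraries had 12 barcode sequences in common, and 1 of them belonged to a member.

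Immediate early genes are transcribed within minutes of a stimulus from factors already present in the cell. FOS and its relatives pair with JUN proteins to form the AP-1 transcription factor, while phosphatases such as DUSP1 and RNA-binding proteins such as ZFP36 shut the signal down again. HSPA1A is the inducible HSP70 chaperone, whose gene is switched on by heat shock factor when unfolded proteins build up, and DNAJB1 is the HSP40 co-chaperone that hands substrates to it. Enzymatic dissociation of solid tissue is well known to raise both groups of transcripts. Its part in the values below was not tested.

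The promoters of 5 genes that the results turn on are shown, with motifs known from heat shock and from cAMP signalling. They are from RefSeq on GRCm38.p6, cover bases -200 to -51 before the annotated start and are written 5′ to 3′ on the strand of the gene. For *Hspa1a* (chr17:34972207-34972356, minus strand) and its neighbour *Hspa1b* (chr17:34959289-34959438, minus strand), capitals mark the core of a heat shock element (GAANNTTC or TTCNNGAA, both of which read the same on either strand).
Hspa1a: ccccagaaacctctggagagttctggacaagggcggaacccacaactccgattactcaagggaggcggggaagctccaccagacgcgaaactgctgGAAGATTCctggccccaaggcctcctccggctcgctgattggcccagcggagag
The match began at base -104. All 150 bases were identical (100%) in the window of *Hspa1b*, which is therefore not repeated. The 2 genes are near-identical copies, so that reads may have been split between them in an uncertain way. For *Fos* (chr12:85473690-85473839, plus strand), *Dusp1* (chr17:26508523-26508672, minus strand) and *Btg2* (chr1:134079206-134079355, minus strand), capitals mark TGACG on either strand, the core of the cAMP response element.
Fos: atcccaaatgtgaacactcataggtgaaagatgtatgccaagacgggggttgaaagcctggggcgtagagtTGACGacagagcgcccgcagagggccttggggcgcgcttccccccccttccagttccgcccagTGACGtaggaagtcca
Dusp1: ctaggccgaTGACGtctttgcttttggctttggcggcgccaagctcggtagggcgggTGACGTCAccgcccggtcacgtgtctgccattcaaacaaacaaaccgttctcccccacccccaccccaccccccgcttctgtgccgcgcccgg
Btg2: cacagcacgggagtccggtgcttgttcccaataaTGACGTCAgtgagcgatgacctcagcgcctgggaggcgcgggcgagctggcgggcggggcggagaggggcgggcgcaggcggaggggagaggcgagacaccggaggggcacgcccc
*Fos* held it at -129 and -66. *Dusp1* held it at -191, and at -143 as the full palindrome TGACGTCA, in which 2 overlapping matches on opposite strands run into each other. *Btg2* held the full palindrome at -166.

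Over the whole promoter window of 250 bases before to 50 bases after the start, the heat shock element core was present for 17.0% of 27025 genes, for 12 of 22 genes of the heat shock list (54.5%), for 5 of 49 immediate early genes (10.2%) and for 6 of 33 genes that were at least 2 times higher in the members (18.2%), where a promoter entry was found. TGACG was present for 23.0% of all genes, 17 of those 33 (51.5%), 32 of 49 immediate early genes (65.3%) and 13 of 22 heat shock genes (59.1%). The heat shock element core thus differed in share between both lists, while TGACG had a similar share in each. Single genes went the other way, since *Dnajb1* held TGACG and no heat shock element core, and *Jun* the reverse. The full TGACGTCA was present for 2.03% of all genes and 4 of the 33 (12.1%). It was present for 5 of 49 immediate early genes (10.2%) and 0 of 22 heat shock genes. At the share over all genes, 0 is also what a list of 22 gives, so no difference between the lists is read from it. The AP-1 motif TGANTCA was present for 8.97% of all genes and 0 of the 33, and the serum response element for 1.81% and 2 of the 33 (6.06%). In immediate early and heat shock genes, the AP-1 motif was present for 2 of 49 (4.08%) and 1 of 22 (4.55%). The serum response element was present for 4 of 49 (8.16%) and 0 of 22. The 33 genes were picked by their level in the members. They include *Fos* and *Hspa1a*, which chose the cells, and other genes of both lists, so their shares carry no test. A match of letters in a window is a description of the sequence only.

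Members and the other cells formed a continuous range. The 5 members nearest to the limit had 1003, 1005, 1008, 1011 and 1016 CPM of *Fos* plus *Hspa1a*, and the 5 nearest cells outside it had 991, 989, 986, 986 and 980. Over the members, the sum ran from 1003 through a median of 1472 to 4359 CPM, and over the other cells from 0 through 123 to 990.5. There were 78 members from 1000 to under 1500 CPM, 34 from 1500 to under 2000 and 38 at 2000 or more. The members are thus the upper end of a distribution with no gap at the limit, which was set on the values themselves.

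**Figure D1:**
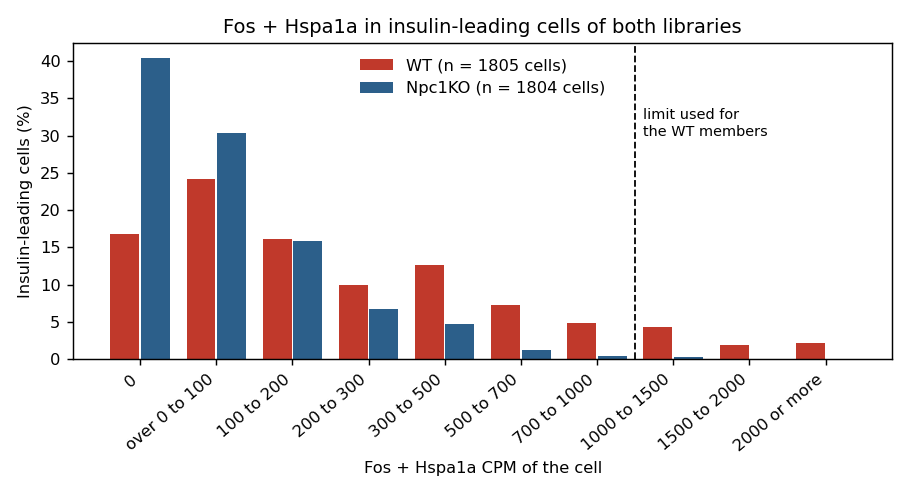
Percent of insulin-leading cells (y axis) in each range of *Fos* plus *Hspa1a* in CPM of the cell (x axis), for 1805 WT and 1804 Npc1KO cells, with the limit of 1000 CPM as a dashed line. WT cells thin out across the limit without a gap, and 728 Npc1KO cells against 302 WT cells had no UMI of either gene.

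In the Npc1KO library, 6 of 1804 insulin-leading cells passed the same limit, which is 0.333% (0.122 to 0.723). The median of *Fos* plus *Hspa1a* was 33.5 CPM in Npc1KO and 146 in WT insulin-leading cells. Those 6 cells were unlike the WT members in depth, with a median of 8740.5 UMIs and 28.5% of UMIs from insulin, against 28525.5 UMIs and 52.9% in the members. Genotype and preparation cannot be told apart with 1 library each.

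In depth, mitochondrial share and insulin share the members lay close to the other cells, with both groups held to the same limits on genes, UMIs, mitochondrial share and insulin share. The median cell had 28525.5 UMIs and 4066.5 genes in the members and 30710 UMIs and 4136 genes in the other cells. The median mitochondrial share was 4.38% (lowest cell 2.35, highest 9.55) against 4.31% (lowest 0.513, highest 9.91), and the median insulin share was 52.9% (lowest 26.4, highest 62.5) against 53.3% (lowest 20.7, highest 66.7). Nuclear long noncoding RNAs, which the rule did not limit, were higher, with a median of 8108 CPM per cell (quartiles 6051 and 10961) against 6908 CPM (quartiles 4852 and 9449). The ranges of all 5 measures overlapped, which the shared limits partly fix for the first 4. Doublet scores from Scrublet had a median of 0.0412 in the members and 0.065 in the other cells, and Scrublet marked 1 member and 42 other cells. No cell was removed as a doublet. Across all 1805 cells, Spearman's rho of *Fos* plus *Hspa1a* was -0.08 with the number of UMIs and -0.14 with the mitochondrial share, as a description.

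Insulin-leading barcodes outside the filter were also counted. In WT, 208 of 1367 passed the limit on *Fos* plus *Hspa1a* (15.2%), among them 198 of 1163 with 1000 genes or fewer (17.0%), 36 of 427 with a mitochondrial share of 10% or more (8.43%), 37 of 162 with over 0.1% haemoglobin UMIs (22.8%) and 7 of 153 with 50000 UMIs or more (4.58%). Barcodes with 1000 genes or fewer thus had a higher share than the cells kept, and at their depth few UMIs of either gene put a barcode past the limit.

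*Fos* (ENSMUSG00000021250, chr12:85473890-85477273, plus strand) and *Hspa1a* (ENSMUSG00000091971, chr17:34969190-34972156, minus strand) chose the members, and their values are given as a description. *Fos* ran from 0 through a median of 979 to 3130 CPM over the members and from 0 through 68.5 to 986 over the other cells. *Hspa1a* ran from 0 through 639 to 2515 over the members and from 0 through 0 to 969 over the other cells. Summed over cells, the *Fos* level was 968 CPM in the members and 124 CPM in the other cells, and the *Hspa1a* level was 736 and 82.1 CPM. All but 1 member had a UMI of *Fos* (149 of 150), while 127 had a UMI of *Hspa1a*.

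The members were therefore of several kinds. *Fos* and *Hspa1a* each passed 1000 CPM in 12 members (8%), *Fos* alone in 60 (40%), *Hspa1a* alone in 26 (17.3%), and in 52 (34.7%) only the sum did. Across all 1805 WT insulin-leading cells, Spearman's rho between both genes was 0.329, and within the 150 members it was -0.46, where the limit on the sum leaves out cells low in both genes, so that a member low in the one had to be high in the other. Since all these cells come from 1 library, the correlations describe it and carry no test. Median depth was similar in each kind, from 26505.5 UMIs (*Fos* alone) to 31879 UMIs (sum only).

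**Figure D2:**
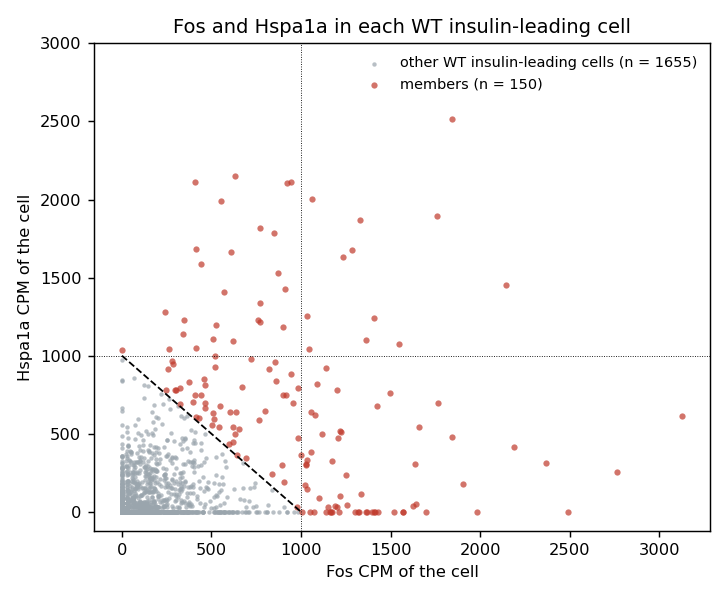
*Fos* (x axis) and *Hspa1a* (y axis) in each WT insulin-leading cell, in CPM of the cell, for 150 members (red) and 1655 other cells (grey), with the limit on the sum as a dashed line and 1000 CPM of each gene as dotted lines. Members spread along both axes, and 12 lie past both dotted lines.

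A rule on either gene alone leaves the other free to vary, and both then moved together. The 72 WT insulin-leading cells with at least 1000 CPM of *Fos* had 508 CPM of *Hspa1a*, against 119 CPM in the remaining 1733, a ratio of 4.26. The 38 cells with at least 1000 CPM of *Hspa1a* had 881 CPM of *Fos*, against 175 CPM in the remaining 1767, a ratio of 5.03. *Dnajb1* was 8.26 times higher in the cells chosen by *Fos* and 6.75 times higher in those chosen by *Hspa1a*, against the remaining cells in each case. The ratio for *Dusp1* was 9.24 with *Fos* and 7.41 with *Hspa1a*. *Hspa8*, which encodes the constitutive HSC70, had ratios of 1.27 and 1.20.

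Across genes, the members differed from the other cells in a short list. Of 4002 genes that reached 20 CPM in 1 of the groups or both, 40 were at least 2 times higher in the members (1.0% of those compared) and 18 at least 2 times lower (0.450%), where 2 times is a limit of size and not a test. The median log2 ratio of all 4002 genes was 0.01. There were 15 genes at least 4 times higher. Of the 40 higher genes, 19 were below 20 CPM in the other cells, so that they entered the comparison through the members, and no count over them supports more than a description. The 40 genes took 0.665% of the members' UMIs and 0.167% of those of the other cells. Of these 40, 23 were on the lists of immediate early or heat shock genes, *Fos* and *Hspa1a* included.

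**Figure D3:**
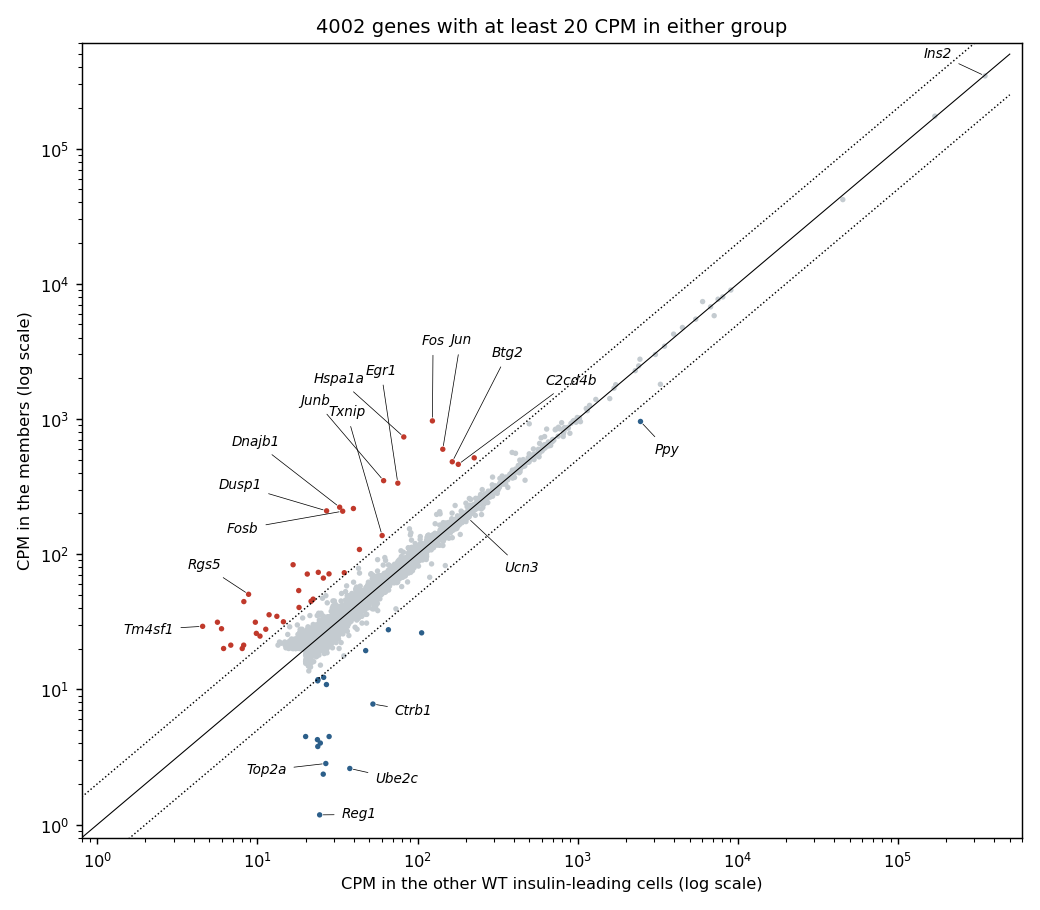
Level of each of 4002 genes in the other WT insulin-leading cells (x axis) and in the members (y axis), in CPM of summed UMIs on log scales. The solid line marks equal levels and the dotted lines a ratio of 2 in either direction. Red marks 40 genes at least 2 times higher and blue 18 at least 2 times lower, while *Ins2* lies on the line of equal levels.

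AP-1 subunits were higher in the members. With *Fos* left out because it chose them, 4 of 11 listed AP-1 genes reached 20 CPM, with a median log2 ratio of 2.28. All 4 were at least 2 times higher, against 1.0% of all genes compared. *Fosb* (ENSMUSG00000003545, chr7:19302696-19310051, minus strand), a FOS relative, ran from 0 through a median of 180 to 915 CPM over the members and from 0 through 0 to 577 over the other cells. Its level was 208 CPM (194 to 222) in the members and 34.1 CPM (32.5 to 35.7) in the other cells, a ratio of 6.10. In 86 of 150 members (57.3%), *Fosb* lay above the 95th percentile of the other cells, so the groups overlapped but most members were in the upper tail.

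*Junb*, a JUN relative, ran from 0 through a median of 232 to 2948 CPM in the members and from 0 through 28.8 to 877 in the other cells. Its summed level was 350 CPM (332 to 368) against 61.4 CPM (59.3 to 63.6), with 48% of the members above the 95th percentile of the other cells. *Jun* had 598 CPM in the members and 144 CPM in the other cells. *Jund*, a constitutively expressed JUN relative, was 516 CPM against 226 CPM, and it was the AP-1 gene with the smallest ratio of these (2.28 times). *Atf3*, a stress-induced relative, stayed below 20 CPM, at 18.9 CPM (15 to 23.5) in the members and 1.19 CPM (0.911 to 1.54) in the other cells.

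Other immediate early transcription factors were higher in the same cells. Of 23 listed, 7 reached 20 CPM, with a median log2 ratio of 2.15. Without the limit of 20 CPM the median was 1.79. Of the 7, 6 were at least 2 times higher, against 1.0% of all genes compared. *Nr4a1*, *Klf2*, *Klf6* and *Id3* were below 20 CPM in the other cells and entered through the members, so the count is a description. *Klf2* and *Id3* fell below 20 CPM in the members too once cells carrying other cell types' markers were left out. *Egr1*, a zinc finger factor induced by growth signals and depolarization, ran from 0 through a median of 292 to 1119 CPM in the members and from 0 through 47 to 669 in the other cells. Its level was 335 CPM (318 to 353) against 75.3 CPM (73.0 to 77.8), and 85 members (56.7%) were above the 95th percentile of the other cells. *Ier2* had 218 CPM against 39.8 CPM. *Nr4a1*, an orphan nuclear receptor, had 31.4 CPM (26.3 to 37.2) against 5.63 CPM (4.99 to 6.32). *Klf2* and *Klf6*, of the Krüppel-like family, had 28.1 against 5.97 CPM and 31.4 against 9.71 CPM. *Ier5* was the gene of this list that did not reach 2 times, at 49.3 against 36.4 CPM.

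Genes that limit such signals were higher as well. *Dusp1* (ENSMUSG00000024190, chr17:26505590-26562128, minus strand), a phosphatase of MAP kinases, ran from 0 through a median of 130 to 1217 CPM in the members and from 0 through 0 to 630 in the other cells. The *Dusp1* level was 209 CPM (196 to 223) in the members and 27.1 CPM (25.6 to 28.5) in the other cells, a ratio of 7.73, and 71 members (47.3%) were above the 95th percentile of the other cells. Of 28 listed genes of signal feedback and mRNA turnover, 13 reached 20 CPM, with a median log2 ratio of 1.06. Without the limit of 20 CPM the median of the list was 1.12. Of the 13, 7 were at least 2 times higher, against 1.0% of all genes compared. *Zfp36*, which destabilizes AU-rich transcripts, had 44.6 against 8.23 CPM, *Btg2*, an antiproliferative factor that promotes mRNA deadenylation, had 483 against 165 CPM, and *Ppp1r15a*, the stress-induced subunit that dephosphorylates eIF2α, had 53.8 against 18.1 CPM. *Dusp5*, *Rhob* and *Rgs2* lay between 2.09 and 2.56 times. Over all 24 immediate early genes of these lists that reached 20 CPM, *Fos* left out, the median log2 ratio was 1.56, with 17 at least 2 times higher and 0 at least 2 times lower. Some of these genes entered through the members, and without the limit of 20 CPM the median was 1.41.

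Heat shock genes differed from each other. *Dnajb1* (ENSMUSG00000005483, chr8:83608193-83612653, plus strand) ran from 0 through a median of 133 to 1457 CPM in the members and from 0 through 0 to 834 in the other cells. Its level was 223 CPM (209 to 237) against 32.6 CPM (31.1 to 34.3), a ratio of 6.82, with 76 members (50.7%) above the 95th percentile of the other cells. *Hspa1b* had 83.6 CPM (75.1 to 92.7) against 16.7 CPM (15.6 to 17.9), *Hsph1*, the HSP110 exchange factor, 73.4 CPM (65.5 to 82.0) against 24 CPM (22.7 to 25.4), and *Hspb1*, a small heat shock protein, 26.0 CPM (21.3 to 31.3) against 9.85 CPM (9 to 10.7). These were the 4 genes at least 2 times higher among 19 at 20 CPM, *Hspa1a* left out, against 1.0% of all genes compared. *Hspa1b* and *Hspb1* were below 20 CPM in the other cells and entered through the members.

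The abundant chaperones were higher in the members by less than 2 times. *Hspa8* had 841 CPM (814 to 869) in the members and 730 CPM (723 to 738) in the other cells, *Hsp90aa1* had 372 against 294 CPM, *Hsp90ab1* had 842 against 641 CPM, and *Dnaja1* had 229 against 172 CPM. The median log2 ratio of the 19 genes was 0.28, with 17 of 19 above 0, and without *Hspa1b* too it was 0.24. Mitochondrial chaperones and proteases (6 genes) had a median of 0.06, ubiquitin and proteasome genes (19 genes) of -0.01, and endoplasmic reticulum chaperones and unfolded protein response targets (19 genes) of 0.01, and no gene of these 3 lists reached 2 times in either direction, as lists of these sizes also give at the shares over all genes (1.0% and 0.450%). *Hspa5*, the main endoplasmic reticulum chaperone, had 869 against 759 CPM. Of the 20 of 27 listed heat shock genes at 20 CPM, those at least 2 times higher were thus *Hspa1a*, *Hspa1b*, *Dnajb1*, *Hsph1* and *Hspb1* alone. *Hspb1* fell below 20 CPM without cells carrying other cell types' markers.

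Stress lists outside these were compared in the same way, where 1.0% of all genes were at least 2 times higher and 0.450% lower. Single genes past 2 times in lists this short are given as a description, since *Ddit4* and *Nfkbiz* entered through the members. In the list of the integrated stress response, which slows translation through eIF2α, 7 of 17 genes reached 20 CPM. Their median log2 ratio was 0.62, with 6 of 7 above 0. Without the limit of 20 CPM the median of the list was 0.22. Of the 7 genes, 1 reached 2 times, *Ddit4*, an inhibitor of mTORC1, at 35.6 against 11.8 CPM. *Atf4*, the central factor of this response, had 139 CPM (128 to 150) against 90.2 CPM (87.6 to 92.9), and *Ddit3* had 33.8 against 19.2 CPM. No gene of 12 antioxidant and metallothionein genes reached 2 times, with a median log2 ratio of 0.06. The shares over all genes also give 0 for a list of this size, so nothing is read from that count. In the list of NF-κB targets, 3 of 18 genes reached 20 CPM, with a median log2 ratio of 0.74, and *Nfkbiz* was at least 2 times higher (34.7 against 13.2 CPM), while *Cxcl1*, *Cxcl2*, *Ccl2*, *Il6*, *Il1b*, *Tnf* and *Ptgs2* had 0 UMIs in the members. With 4236502 UMIs summed over the members, 0 UMIs allows a level of up to 0.708 CPM per gene, for counting error only. Among p53 targets and apoptosis genes, none of 3 was at least 2 times higher, as the share over all genes also gives. *Cdkn1a* was at least 2 times lower, at 11.6 against 23.8 CPM. It was no longer counted as lower without cells carrying other cell types' markers.

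The kinds of members differed in the levels of these genes. *Dusp1* was 425 CPM in members past 1000 CPM of both genes, 266 CPM where *Fos* alone passed, 195 CPM where *Hspa1a* alone passed, 112 CPM where only the sum passed, and 27.1 CPM in the other cells. In the same order, *Dnajb1* was 537, 260, 166, 142 and 32.6 CPM. The level of each kind was above that of the other cells for both genes. The intervals did not overlap those of the other cells, but they cover counting error only and leave out the spread between cells. *Fos* was 599 CPM in the members chosen through *Hspa1a* alone, and *Hspa1a* was 257 CPM in those chosen through *Fos* alone, against 124 and 82.1 CPM in the other cells. *Junb* was 510 CPM with *Fos* alone and 254 CPM with *Hspa1a* alone, whereas *Hspa1b* was 57.6 and 108 CPM. *Atf3* was highest in the 12 members past both limits, at 67.1 CPM (24 UMIs). *Hspb1* was 106 CPM in those 12 (38 UMIs) and 24.5 CPM where only the sum passed. With *Fos* alone (14.9 CPM, 9.44 to 22.4) and *Hspa1a* alone (13.5 CPM, 6.45 to 24.8), the intervals of *Hspb1* overlapped that of the other cells. Over all members, its level depended on cells carrying other cell types' markers, as given above. Where only the sum passed, *Rasd1* (59.7 CPM), *C2cd4b* (320 CPM) and *Jund* (364 CPM) were less than 2 times higher than in the other cells.

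**Figure D4:**
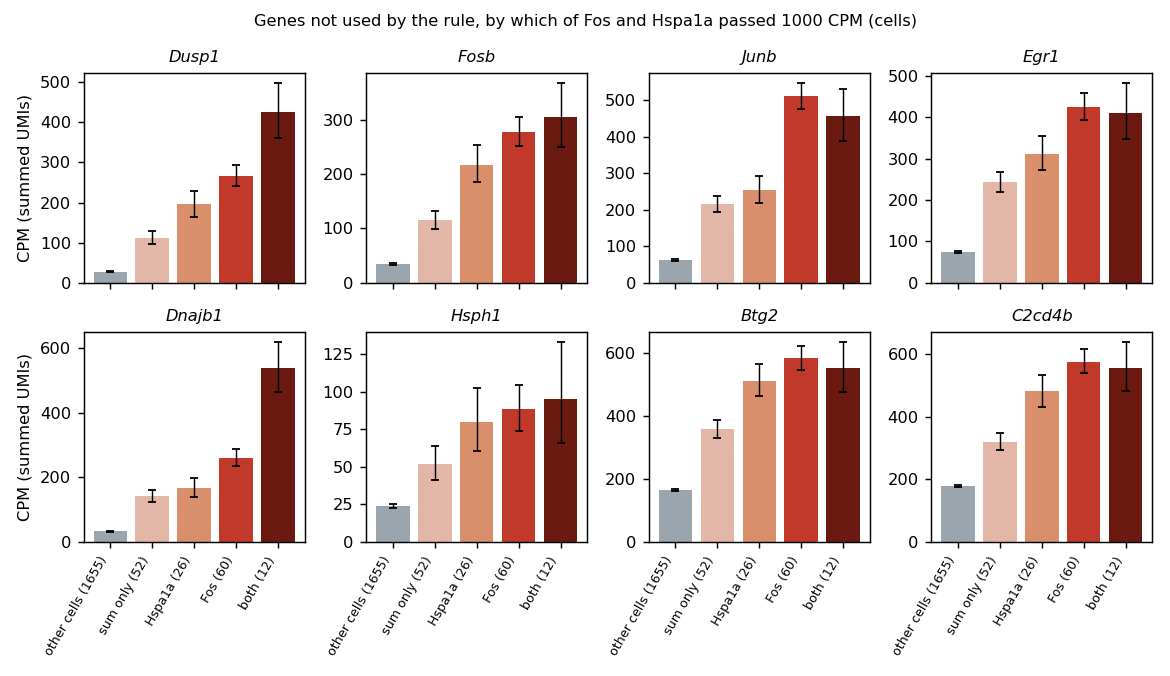
Level of 8 genes that the rule did not use (y axis, CPM of summed UMIs, bars with 95% Poisson intervals) in the other WT insulin-leading cells and in 4 kinds of members, by which of *Fos* and *Hspa1a* passed 1000 CPM (x axis, number of cells in brackets). Every kind of member is above the other cells for each gene, and *Dnajb1* reaches 537 CPM where both passed.

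The same genes also varied below the limit. In WT insulin-leading cells with under 100 CPM of *Fos* plus *Hspa1a* (739 cells), 100 to 300 (470 cells), 300 to 1000 (446 cells), 1000 to 1500 (78 members) and 1500 or more (72 members), *Dusp1* was 12.5, 26.2, 53, 159 and 265 CPM. *Dnajb1* was 20, 30.5, 56.5, 157 and 296 CPM, and *Btg2* was 119, 163, 245, 396 and 579 CPM. All 3 were higher in each range than in the one below it, below the limit too. They were named as genes higher in the members, so their rise into the ranges of members came with that choice. *Hsph1* was even below 300 CPM (22.4 and 21.9 CPM) and then 29.1, 54.3 and 94.5 CPM.

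Beta cell genes were near equal in the members and the other cells. Of 38 beta cell genes at 20 CPM, the median log2 ratio was 0.06 and 0 reached 2 times in either direction, a count that the shares over all genes (1.0% higher and 0.450% lower) also give for a list of this size. *Ins2*, the more abundant insulin gene, ran from 172535 through a median of 350736 to 441232 CPM over the members and from 11638 through 358584 to 477722 over the other cells, and *Iapp*, which encodes the co-secreted peptide amylin, had 41944 against 45317 CPM. The maturation marker *Ucn3* had 186 CPM (173 to 199) against 207 CPM (203 to 211), and *Mafa*, a factor of mature beta cells, had 197 CPM (184 to 211) against 198 CPM (194 to 202). *Pdx1* had 151 against 140 CPM, the glucose transporter gene *Slc2a2* 279 against 268 CPM, and *Nkx6-1* 258 CPM (243 to 274) against 211 CPM (207 to 215). Insulin was part of the rule for both groups, and without *Ins1* and *Ins2* the median log2 ratio of the 36 remaining genes was 0.07, again with 0 past 2 times. The values of *Mafa* and *Ucn3* depended on the limit. With it at 2000 CPM their log2 ratios were -0.53 and -0.52, and in the 12 members past 1000 CPM of both genes *Mafa* was 97.9 CPM (68.2 to 136) and *Ucn3* 154 CPM (116 to 200.2).

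Mature markers did not change in a single direction over the ranges. With *Fos* plus *Hspa1a* in the ranges given above, *Ucn3* was 234, 201 and 165 CPM in the 3 ranges under 1000 CPM and 183 and 188 CPM in both ranges of members. *Mafa* was 220, 191 and 168 CPM and then 204 and 190 CPM. *Nkx6-1* was lowest in the lowest range (202 CPM) and highest in the highest (279 CPM).

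Respiratory and translation genes were also near equal. Among 29 nuclear genes of oxidative phosphorylation, the median log2 ratio was -0.11, with 4 of 29 above 0, and 0 reached 2 times in either direction. The 12 genes encoded by mitochondrial DNA had a median of -0.01, 21 ribosomal protein genes a median of 0.02 and 9 glycolysis genes a median of -0.02, again with 0 past 2 times. At the shares over all genes, 0 is also what lists of these sizes give, so nothing is read from these counts. Nuclear long noncoding RNAs had a median of 0.24 (5 genes). *Malat1* had 7386 CPM (7304 to 7468) in the members and 6034 CPM (6012 to 6055) in the other cells, and *Neat1* had 78.6 against 42.8 CPM.

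The other 17 of the 40 higher genes were on none of the immediate early or heat shock lists. *C2cd4b* (ENSMUSG00000091956, chr9:67759437-67760930, plus strand), at a locus linked to type 2 diabetes, ran from 0 through a median of 382 to 2766 CPM over the members and from 0 through 138 to 1542 over the other cells. Its level was 462 CPM (442 to 483) against 180 CPM (176 to 183), with 58 members (38.7%) above the 95th percentile of the other cells, and it was 146, 182, 235, 393 and 538 CPM over the ranges of *Fos* plus *Hspa1a*. Its paralogue *C2cd4a* had 21.2 against 6.82 CPM. *Gem*, a GTP-binding inhibitor of calcium channels, had 71.3 against 20.5 CPM, *Rasd1*, a Ras-related protein induced by glucocorticoids, 108 against 43.4 CPM, and *Irs2*, an adaptor of the insulin receptor, 20.1 against 8.04 CPM. *Txnip*, a glucose-induced inhibitor of thioredoxin, had 137 CPM (126 to 149) against 60.1 CPM (58 to 62.3), and *Rgs16*, a regulator of G protein signalling, had 44.9 against 21.6 CPM.

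A few cells decided 3 of these 17 genes. *Rgs5*, a pericyte marker, had 50.5 CPM in the members and 8.81 CPM in the other cells, but 132, 45 and 33 of its 214 UMIs came from 3 members. *Tm4sf1*, an endothelial gene, had 108 of 124 UMIs in 1 member, and *Sparc*, a matrix protein gene of stromal cells, had 164 and 96 of 309 UMIs in 2 members. Markers of endothelial, stellate, macrophage, neutrophil or Schwann cells reached 300 CPM in 6 members (4%) and 30 other cells (1.81%). Without these cells, *Rgs5* had 1 UMI and *Tm4sf1* 2 UMIs in the members, and the log2 ratios were -0.48 and -0.0014, with 0.17 for *Sparc*, while those of *Fos*, *Hspa1a*, *Dusp1* and *Dnajb1* were 3.00, 3.23, 3.02 and 2.79. *Id3*, a helix-loop-helix factor counted above among the immediate early genes, went from 20.1 CPM to 1.98 CPM in the members (8 UMIs). *Klf2*, which endothelial cells express strongly, kept a log2 ratio of 2.65, at 17.1 against 2.72 CPM.

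Marker lists of other islet cells were summed as well. The 5 *Ppy* and *Pyy* cell markers summed to 6844 CPM in the members and 9685 CPM in the other cells, led by *Pyy*, whose log2 ratio was -0.29 and above 0 with other limits (0.38 at 500 CPM and 0.31 at 2000 CPM), the 6 alpha cell markers to 2591 and 4145 CPM, led by *Gcg*, and the 6 delta cell markers to 2009 and 2031 CPM, led by *Sst*. The 10 acinar markers summed to 19.1 and 132 CPM, led by *Ctrb1*, and the 7 duct markers to 300.5 and 295 CPM, led by *Krt18*. The part of these 5 cell types in the gene differences was not tested. The 8 endothelial markers summed to 81.4 CPM in the members and 39.6 CPM in the other cells, led by *Plvap* at 18.9 CPM in the members. The 8 stellate markers summed to 63.0 and 28.4 CPM, led by *Rgs5*, with *Pdgfra* and *Dcn* at 0 in the members, and the 8 macrophage markers to 37.5 and 27.1 CPM, led by *C1qa*, with *C1qb* and *Adgre1* at 0. All 6 neutrophil markers were at 0 in the members. The B cell, T cell and Schwann cell lists summed to 3.07, 0.944 and 12 CPM in the members. Without the 36 carrier cells, 33 of the 40 higher genes were still at least 2 times higher at 20 CPM or more. *Tm4sf1*, *Rgs5* and *Sparc* were no longer 2 times higher, and *Id3*, *Klf2*, *C2cd4a* and *Hspb1* were, but below 20 CPM, while 17 of the 18 lower genes were still at least 2 times lower, with *Cdkn1a* the exception.

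The 18 lower genes included 5 of the cell cycle list. Of 7 cell cycle genes at 20 CPM, these 5 were at least 2 times lower, against 0.450% of all genes compared. The median log2 ratio of the 7 was -2.61. *Top2a*, a topoisomerase of dividing cells, had 2.83 CPM (1.46 to 4.95) in the members and 26.7 CPM (25.3 to 28.2) in the other cells, *Mki67*, the Ki-67 gene, 3.78 against 23.8 CPM, and *Ube2c*, of the mitotic ubiquitin machinery, 2.60 against 37.8 CPM. These values followed a few cells, since the cell cycle list reached 2000 CPM in 3 members (2.00%) and 83 other cells (5.02%). Without those 86 cells, *Top2a* had 0.718 against 1.47 CPM, *Mki67* 1.91 against 2.53 CPM and *Ube2c* 1.91 against 1.01 CPM, and 3 genes in place of 18 were at least 2 times lower.

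Digestive enzyme genes among the lower 18 rested on 1 cell. In the other cells, 1141 of 1231 UMIs of *Reg1*, 2274 of 2648 of *Ctrb1* and 1262 of 1410 of *Pnliprp1* came from the highest cell, which was 1 cell for all 3 genes and was among the 86 left out above. *Ppy*, the pancreatic polypeptide gene that immature beta cells can express, had 959 CPM (929 to 989) in the members and 2469 CPM (2456 to 2483) in the other cells. Its median per cell was 244 CPM in the members and 233 in the other cells, so the typical cells were alike and the upper tails differed: 2 members (1.33%) and 106 other cells (6.40%) had 10000 CPM or more. Over the ranges of *Fos* plus *Hspa1a*, *Ppy* was 1771, 2729 and 3378 CPM below the limit and 754 and 1185 CPM in the members. The direction thus changed at the limit, and with the limit at 500 CPM the log2 ratio of *Ppy* was 0.06, in place of -1.36. Without the cells of the highest Scrublet scores it was -0.70, and with the limit at 2000 CPM -0.47. With *Hspa1a* alone it was -0.56 and with *Fos* alone -0.998, and all of these were short of 2 times. *Gcg* had 1806 against 3288 CPM, and 5281 of its 7650 UMIs in the members came from 1 cell.

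In the WT library, *Fos* plus *Hspa1a* at 1000 CPM or more was found in every class of islet cell with at least 30 cells, and the share in insulin-leading cells was the lowest value of these. The share was 8.31% in insulin-leading cells, 24.9% in glucagon-leading cells (22.4 to 27.6), 17.5% in somatostatin-leading cells (12.5 to 23.5) and 22.4% in *Ppy* and *Pyy*-leading cells (18.5 to 26.6). It was 56.5% in endothelial-like cells, 70.9% in stellate-like cells, 48.6% in Schwann-like cells and 44.4% in macrophage-like cells, and 12.6% and 14.5% in B cell-like and T cell-like cells. Classes differ in depth, from a median of 4216 UMIs in B cell-like to 30548 UMIs in insulin-leading cells, so the shares are not on an equal footing. At an equal depth of 5000 UMIs per cell, with shallower cells left out (12 of the insulin-leading and 95 of the B cell-like), the expected shares were 10.5% of insulin-leading, 30.4% of glucagon-leading, 60.3% of endothelial-like, 71.8% of stellate-like and 12.2% of B cell-like WT cells, and 0.665% of insulin-leading Npc1KO cells. The summed level of *Fos*, which does not hang on a limit per cell, was 190 CPM in insulin-leading, 494 CPM in glucagon-leading, 785 CPM in endothelial-like and 923 CPM in stellate-like cells. It was lower than in insulin-leading cells in B cell-like (103 CPM) and T cell-like cells (123 CPM), so insulin-leading cells were not the lowest class by this measure, whereas *Hspa1a* was lowest in insulin-leading cells (133 CPM, against 199 and 227 CPM in B cell-like and T cell-like cells).

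Both genes were lower in the Npc1KO library in every class compared. In 9 of 9 classes with at least 30 cells in both libraries, cells in no named class included, *Fos*, *Hspa1a*, *Dnajb1*, *Dusp1*, *Fosb*, *Junb* and *Egr1* and the share past the limit were higher in WT. The count takes in differences of any size. *Dusp1* was 24.2 CPM in WT and 22.6 CPM in Npc1KO Schwann-like cells, and *Junb* was 124 and 116 CPM in somatostatin-leading cells. *Hspa1a* was 133 CPM in WT and 29.0 CPM in Npc1KO insulin-leading cells, 253 and 70.1 CPM in glucagon-leading cells and 1082 and 853 CPM in stellate-like cells. Of the 40 genes at least 2 times higher in the members, 28 had a lower level in Npc1KO insulin-leading cells than in the other WT insulin-leading cells (70%), against 1525 of all 4002 genes compared (38.1%). The 40 include *Fos* and *Hspa1a*, which chose the cells, and 19 that entered through the members, so both shares are given as a description. *Dusp1* was 9.63 CPM and *Jun* 60.2 CPM in Npc1KO insulin-leading cells, against 27.1 and 144 CPM in the other WT cells. *Txnip* went the opposite way, at 194 CPM against 60.1 CPM.

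**Figure D5:**
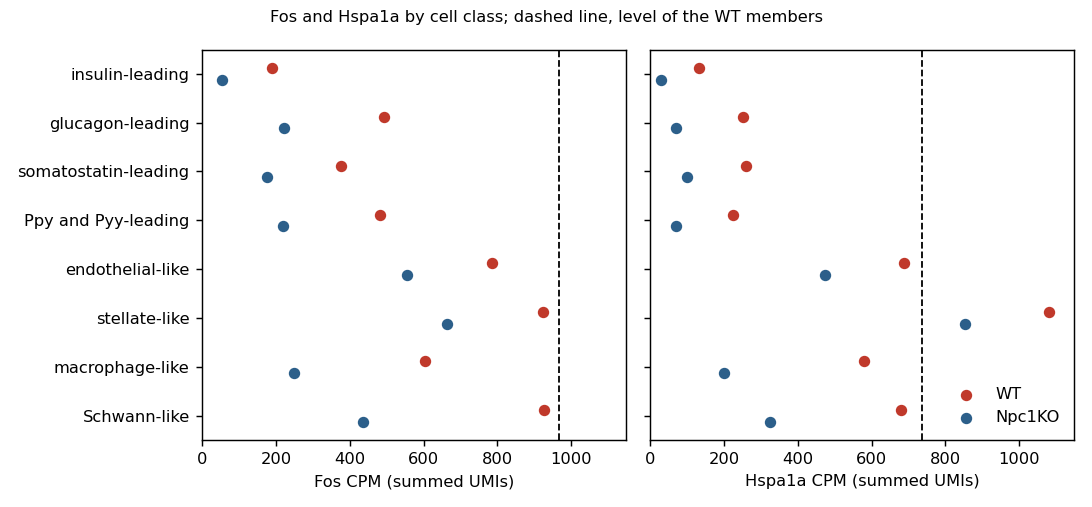
Summed level of *Fos* (left) and *Hspa1a* (right) in CPM (x axis) for 8 classes of islet cells (y axis) in the WT (red) and Npc1KO (blue) library, 1 point per class and library, with the level of the 150 WT members as a dashed line. The WT point lies to the right of the Npc1KO point in every class shown, and the stellate-like cells of both libraries lie past the members' level of *Hspa1a*.

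Glucagon-leading cells of the same WT library gave a comparison with a like split. There, 265 cells passed the limit and 798 did not, and 25 of 5352 genes at 20 CPM were at least 2 times higher in the first (0.467%). Of the 40 genes from the insulin-leading cells, 20 were also on that list of 25 (50% of the former and 80% of the latter), and 5 of the 40 were below 20 CPM there. *Fos* and *Hspa1a* chose the cells in both. *Dnajb1* had 302 CPM past the limit and 99.7 CPM in the remaining glucagon-leading cells, *Dusp1* 189 and 68.2 CPM, and *Egr1* 655 and 256 CPM, so the log2 ratios of 1.60, 1.47 and 1.36 were smaller than those in insulin-leading cells (2.77, 2.95 and 2.15), where the level below the limit was lower. *C2cd4b* had log2 ratios of 1.36 in insulin-leading and 0.31 in glucagon-leading cells, *Txnip* 1.19 and 0.44, and *Rgs16* 1.05 and -0.21. *Gem* had 1.80 and 1.13, and *Ddit4* 1.59 and 1.13. The 5 genes on the glucagon-leading list alone included *Atf3*, *Klf4*, *Nr4a2* and *Socs3*, which were below 20 CPM in the insulin-leading cells.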

How the data were processed

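For each of the 2 libraries the authors deposited counts of UMIs in a matrix of genes by barcodes, made with Cell Ranger 3.1.0 on build mm10 according to the submitters' processing notes, which also name Seurat 4.0.3. Barcodes had been called as cells by Cell Ranger, and the counts were neither normalized nor filtered further. The WT library held 114324626 UMIs and the Npc1KO library 127122035 UMIs.

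The members and gene lists were chosen with earlier results of these data known. The filter required over 1000 genes and under 50000 UMIs in a cell, of which under 10% were mitochondrial and no more than 0.1% haemoglobin. Glucagon-leading, somatostatin-leading and *Ppy* and *Pyy*-leading cells had at least 5% of UMIs from their hormone. Cells of other classes were named from the marker list with the largest sum, at 1000 CPM or more, without clustering. UMIs were summed over cells and expressed as CPM, and log2 ratios were computed after adding 0.5 counts. Genes had to reach 20 CPM in either group. Intervals (95%) were exact Poisson for levels, Clopper-Pearson for shares and conditional binomial for ratios. Leaving out hormone genes from the totals was among the alternatives. The named genes were fixed marker genes, the 25 highest and 15 lowest ratios, and the leading members of each list. A few others (*Atf3*, *Neat1*, *Ddit3* and the genes named from the glucagon-leading list) were chosen after their values were seen.

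Doublets were scored with Scrublet (scanpy 1.11.5), which marked 1.40% of WT cells. None was removed, and removal of the highest scores was an alternative. Other steps used Python 3.11.15, numpy 2.4.6, scipy 1.17.1 and pandas 2.3.3. The procedure was tested on simulated data. Gene positions are from GENCODE vM21 (GRCm38), and promoters from RefSeq (GRCm38.p6), where 33 of the 40 higher genes had an entry. Where a symbol was listed under more than 1 identifier, the first was used.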

Additional observations from a re-analysis of the deposited data

How the results depend on the processing

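The share of members among WT insulin-leading cells stayed near 8.31% with other limits on insulin, quality and doublet scores, but was 20.3% with the limit at 500 CPM, 2.11% at 2000, and 9.93% in 1 random draw of 5000 UMIs per cell (expected value over draws, 10.5%), where 126 of 178 members were members unthinned and 12 cells were left out as shallower. The 40 genes at least 2 times higher became 94 with the limit at 2000 and 67 with *Hspa1a* alone, 70 without hormone genes in the totals, 107 at 5 CPM, 22 at 50 CPM and 815 at 10 or more UMIs. The 18 lower genes became 6 with the limit at 500, 29 with *Hspa1a* alone, 38 without hormone genes, 10 with the other cells weighted to the members' deciles of UMI number, 80 at 5 CPM, 4 at 50 CPM, 755 at 10 or more UMIs and 3 without cycling cells. The median log2 ratio of immediate early genes was 1.25 with the limit at 500, 2.18 at 2000, 1.81 with *Fos* alone and 1.82 with *Hspa1a* alone, against 1.56. That of heat shock genes was 0.51 at 2000, 0.42 with *Hspa1a* alone and 0.41 with *Fos* alone, against 0.28. It was 0.14 without hormone genes, 0.16 at 10 or more UMIs and 0.19 with the limit at 500. That of beta cell genes lay between 0.03 and 0.09 in all settings run. Some named genes past 2 times changed direction: *Ppy* (0.057 with the limit at 500), *Tm4sf1* (-0.24 with *Fos* alone and -0.0014 without cells carrying other cell types' markers), *Rgs5* (-1.94 at 2000, -1.58 with *Hspa1a* alone and -0.48 without those carriers), and, without cycling cells, *Ube2c* (0.99), *Ctrb1* (0.066), *Pnliprp1* (0.56), *Pbk* (1.27), *Cks2* (0.11) and *Spc24* (0.19). Among genes short of 2 times, *Slc2a2* (0.057) was -0.019 at 500 and -0.10 at 2000, while *Mafa* (-0.0046) was -0.32 and -0.53, *Ucn3* (-0.15) was -0.36 and -0.52, and *Pyy* (-0.29) was 0.38 and 0.31, with 0.045 after removal of the highest doublet scores, 0.090 with *Fos* alone and 0.0027 with *Hspa1a* alone. Leaving out carriers or cycling cells was added after seeing the data. The causes were not tested, apart from the fewer cells or other genes that a setting takes in. Levels of a few CPM rest on few molecules. No paired analysis was possible because each genotype had 1 library, and leaving out a library would leave no comparison.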
